A study of Homo sapiens with 22 samples.

Results

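Very long fragile-site genes were examined for transposon insertions in K562, a line grown from a human chronic myelogenous leukemia. The 9 genes FHIT, WWOX, MACROD2, LRP1B, CSMD1, IMMP2L, DLG2, LSAMP and DMD were taken by name, out of 19970 protein-coding genes on chromosomes 1 to 22 and X, and every insertion between the annotated start and end of each gene was counted. They cover 15.3 Mb and hold 122953 TTAA sites, the only tetranucleotide at which the piggyBac transposase (PBase) inserts, and 200661 of the 52121198 insertions on these chromosomes. These are 0.645% of the TTAA sites and 0.385% of the insertions.

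In calling cards, a transposon marks the places that its transposase visited. The helper hyPBase is a hyperactive PBase. Here the donor was a barcoded self-reporting transposon carrying puromycin resistance. Its own promoter transcribes into the neighbouring genome, and insertions are read from that RNA. Common fragile sites are stretches that tend to break when DNA replication is slowed. Many contain a single gene of extreme length whose transcription runs through late-replicating chromatin, and cancer genomes often carry deletions inside FHIT, WWOX, MACROD2 and their like.

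The transposase came from a helper plasmid, hyPBase in 10 libraries and hyPBase-centrip in the other 10, and the labels do not describe how the second differs. Cells received donor and helper plasmid by electroporation, were kept in puromycin for 11 days, and 3 transfections shared a dish, so that p-values measure the spread between libraries, which may be partly technical. Every library of both groups carries the same donor. A library held 1509672 to 3596762 insertions with a median of 2671547.5, and hyPBase-centrip replicate 3 had the lowest density in 6 of the 9 genes. This library also had the fewest reads of all, 3746826. Reads per insertion were in general higher in the hyPBase libraries than in the hyPBase-centrip libraries.

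Density below is insertions per TTAA site divided by the mean of 2.74 insertions per TTAA site over chromosomes 1 to 22 and X, so that 1 is the genome mean. Repeats, copy number and expression in these cells were not measured here, and their part in any density was not tested. A site that is struck seldom and a site whose transcript is recovered seldom cannot be told apart.

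The most used TTAA site of each gene is shown to give the sequence at which insertions recurred most often. The sites hold 0.154% (MACROD2) to 3.48% (LSAMP) of the insertions of their gene. The sequences below are from hg38, 5′ to 3′ on the strand of the gene, with the TTAA in capitals and 20 bases to each side. They show that the base pairs around these sites range from AT-rich to GC-rich.
FHIT: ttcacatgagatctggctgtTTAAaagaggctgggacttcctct
WWOX: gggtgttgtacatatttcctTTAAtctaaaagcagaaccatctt
MACROD2: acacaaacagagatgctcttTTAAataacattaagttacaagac
LRP1B: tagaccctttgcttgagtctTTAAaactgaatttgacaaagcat
IMMP2L: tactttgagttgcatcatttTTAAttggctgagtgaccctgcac
DLG2: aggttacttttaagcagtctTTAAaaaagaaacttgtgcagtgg
LSAMP: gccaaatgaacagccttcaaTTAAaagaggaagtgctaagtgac
DMD: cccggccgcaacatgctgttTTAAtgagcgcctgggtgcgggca

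All 8 of these sites lie in introns of the canonical transcripts. The FHIT site is at chr3:60276846-60276849 on the minus strand, in intron 5, and took 404 insertions, with 11 to 24 per library. The LSAMP site, at chr3:116038690-116038693 on the minus strand in intron 2, took 710, the most of all members, with 24 to 39 per library. IMMP2L took 459 at chr7:111476187-111476190 (minus strand, intron 3), with 9 to 28 per library. All 3 were hit in every library. A library can record at most 25 barcodes in each of 2 orientations at 1 site, or 1000 lines over all libraries. Each of these 3 sites showed 21 barcodes, so the ceiling in practice may be lower. The LSAMP site, with up to 39 in a library, came nearest to this ceiling. Whether the counts of the densest sites were compressed was not tested.

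The DMD site differs from the others printed in its base composition. It lies at chrX:31863045-31863048 on the minus strand, in intron 48 of the full-length transcript, 6 bases from the annotated start of a short internal transcript, ENST00000681839. Its 40 flanking bases are 30% A or T, against 50% to 67.5% for the other 7 sites printed. It took 344 insertions, 14 to 21 per library, and 7.0% of them had the orientation of the gene.

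The sites in the remaining genes were used less. WWOX reached 146 insertions at chr16:78122923-78122926 (plus strand, intron 4) and DLG2 reached 84 at chr11:85626267-85626270 (minus strand, intron 2), 548 bases from an annotated transcript start. LRP1B reached 44 at chr2:141137186-141137189 (minus strand, intron 7). In MACROD2 no site passed 9 insertions, a number that at least 2 sites shared, and the one printed, at chr20:14065863-14065866 (plus strand, intron 2), was hit in 8 of 20 libraries.

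A T before the TTAA, or an A after it, was common at these sites, and the preference held across the members. Relative to the mean of its own 50 kb bin, a site with both took 1.60 times as many insertions (22499 sites, 60131 insertions), a site with 1 of them took 1.02 times (56695 sites), and a site with neither took 0.664 times (43759 sites). The ratio for sites with both ranged from 1.46 in IMMP2L to 1.89 in MACROD2, and for sites with neither from 0.554 in MACROD2 to 0.738 in IMMP2L. The contrast was thus present in every member, and it was widest in the member with the fewest insertions. This is a description over sites, which are not replicates, and no test was made.

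The members spanned a 23.02-fold range of density, and most were colder than the genome. IMMP2L, which encodes a subunit of the inner membrane peptidase of mitochondria, was the densest at 3.02. Over the 20 libraries it ran from a lowest value of 2.45 through a median of 3.01 to a highest of 3.30. FHIT, a diadenosine triphosphate hydrolase at the most fragile site of human lymphocytes, followed with 1.38 (1.26, median 1.39, 1.44). These are the only members whose libraries all lay above the genome mean.

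WWOX, an oxidoreductase with WW domains, had a density of 0.866 (0.795, median 0.861, 0.925). LSAMP, a neuronal adhesion protein anchored to the membrane by a lipid, had 0.714 (0.648, median 0.713, 0.795). The 7 members from WWOX down were below 1 in 20 of 20 libraries. For WWOX that side depends on the scale, since it stood at 1.02 against the median 50 kb bin of protein-coding genes and at 1.12 when barcodes were collapsed to distinct positions within a library.

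CSMD1, DLG2 and DMD could not be ranked. CSMD1, a large membrane protein that regulates complement, had 0.287 (0.253, median 0.284, 0.318). DLG2, a scaffold of synapses, had 0.284 (0.250, median 0.284, 0.305), and DMD, which encodes dystrophin, had 0.283 (0.247, median 0.283, 0.303). CSMD1 exceeded DLG2 in 8 of 20 libraries and DLG2 exceeded DMD in 8 of 20, so neighbours in this order did not differ beyond their spread.

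The coldest members were LRP1B, a receptor of the low density lipoprotein receptor family, with 0.200 (0.149, median 0.202, 0.219), and MACROD2, which removes mono-ADP-ribose from proteins, with 0.131 (0.120, median 0.130, 0.139). Their ranges overlapped neither each other nor those of the genes above. The ranges of WWOX and LSAMP overlapped, yet WWOX was higher in 20 of 20 libraries with a mean difference of 0.148 ± 0.0474 (SD, n = 20). The lowest LRP1B value came from hyPBase-centrip replicate 3.

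**Figure D1:**
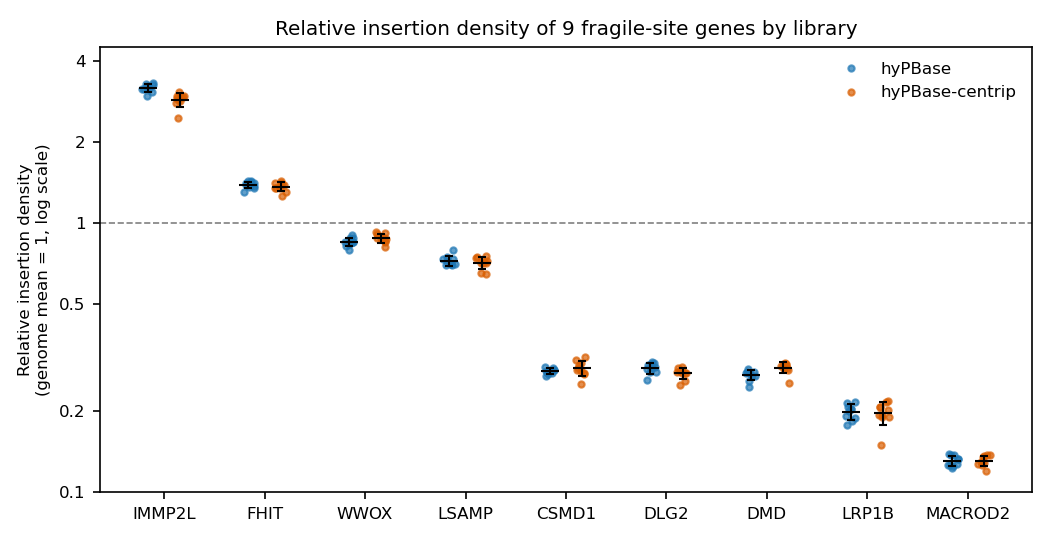
Relative insertion density (log scale, genome mean at the dashed line) of each gene in each library, with hyPBase libraries in blue and hyPBase-centrip libraries in orange; black bars are the mean and SD of 10 libraries. IMMP2L and FHIT lie above the line in all libraries and the other 7 genes below it, down to MACROD2 between 0.120 and 0.139.

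Long genes were in general cold in these cells. The median of the 9 members was 0.287, of 313 other protein-coding genes of at least 500 kb 0.454, and of all 12266 protein-coding genes with at least 50 TTAA sites and 100 insertions 1.24. Of the other long genes, 78.3% were below the genome mean, against 7 of 9 members. A list of 20 further genes at fragile sites had a median of 0.261, and 19 of them were below 1, the exception being EXOC4, a subunit of the exocyst, at 1.47. Within the long genes, 3.51% were colder than MACROD2, 19.2% than LRP1B and 96.2% than IMMP2L.

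The share of sites hit at least once did not keep the order of the densities throughout. In IMMP2L 77.7% of TTAA sites had an insertion, in WWOX 61.7%, in FHIT 57.2% and in LSAMP 40.6%, and the figure fell to 24.3% in MACROD2, against 48.1% over the genome. WWOX was hit at more of its sites than the denser FHIT. LSAMP was hit at fewer of its sites than the genome, although single sites in it were among the most used. An insertion rested on a mean of 2.48 reads in LRP1B to 3.37 in LSAMP, against 3.45 over the genome, so each member was read somewhat more thinly than the average.

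For each member, the long gene most alike in density and same-strand share over the pooled libraries was found. Those of the cold members were TAFA1 for MACROD2 (0.126), SLC8A1 for LRP1B (0.207), GRIN2B for CSMD1 (0.306), PLCB1 for DLG2 (0.283) and ADGRL3 for DMD (0.277). IMMP2L was nearest to MAGI1 (3.11), FHIT to EGLN3 (1.54), WWOX to PRKD1 (0.794) and LSAMP to CTNNA2 (0.706). Members were left out of this search. None of the 9 genes found is one of the 20 further fragile-site genes, and the likeness rests on 2 values per gene.

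On hg38 the genes lie at chr7:110662644-111562517 (IMMP2L, minus strand), chr3:59747277-61251459 (FHIT, minus), chr16:78099400-79212667 (WWOX, plus), chr3:115802374-117139389 (LSAMP, minus), chr8:2935353-4994972 (CSMD1, minus), chr11:83455012-85628335 (DLG2, minus), chrX:31097677-33339609 (DMD, minus), chr2:140231423-142131016 (LRP1B, minus) and chr20:13995369-16053197 (MACROD2, plus). They are 899.874 kb (IMMP2L) to 2241.933 kb (DMD) long. Gene means hid strong structure along them, which was described in bins of 50 kb tiled from each transcription start. A bin was called cold under 0.25, near-empty under 0.02 and hot over 3, where 309 of the members' bins had at least 50 TTAA sites. Of these, 175 (56.6%) were cold, 12 (3.88%) were hot and 0 were near-empty. Over all 31449 bins of protein-coding genes the shares were 14.2% cold, 8.42% hot and 0.537% near-empty, and over the other long genes 37.3%, 3.48% and 0.384%. Cold bins were thus more frequent in the members than in both, and hot bins about as frequent as in the other long genes.

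The cold bins were unevenly spread. All 42 of 42 bins in MACROD2 were cold, and 32 of 38 in LRP1B, 30 of 42 in CSMD1, 31 of 44 in DLG2, 26 of 45 in DMD and 14 of 27 in LSAMP. FHIT, WWOX and IMMP2L had 0 cold bins of 30, 23 and 18. The hot bins lay in IMMP2L (7), FHIT (3) and LSAMP (2).

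MACROD2 and WWOX were the flattest genes. Within MACROD2 the bins ran from 0.0830 to 0.243, a ratio of 2.93, and the highest was the second, 50 to 100 kb from the start. WWOX ran from 0.543 to 1.45, a ratio of 2.66. The highest bin of MACROD2 was above the first, at 0.140, and above the gene's median bin of 0.133, but was still cold. MACROD2 was thus cold over its 2057.83 kb. In its flanks of 500 kb, 1 of 10 bins upstream and 2 of 10 downstream were cold.

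LRP1B was also even, with 4.35 times as high a density in its highest bin (0.435) as in its lowest (145 insertions). Its longest run of cold bins covered the first 500 kb at 0.205, and the rest of the gene stood at 0.198. The highest bin lay at 950 to 1000 kb, where the gene's most used site falls. Outside the gene, 8 of 10 bins upstream and 9 of 10 downstream were cold too.

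In DMD the coldness had an end. The first 26 bins, 1300 kb from the start of the longest transcript, were all cold with a density of 0.116 (0.0988, median 0.115, 0.140 over libraries), and the remaining 19 bins had 0.536 (0.472, median 0.540, 0.584). The 2 ranges did not overlap in any library. The coldest bin, at 750 to 800 kb and spanning exons 14 to 17, had 0.0723 and 86 insertions. From 1150 kb the bins rose in steps of 0.15, 0.21, 0.23, 0.26, 0.32 and 0.35 to 1.67 at 1450 to 1500 kb, the bin of exon 48 and of the GC-rich site. All 10 bins in the 500 kb upstream of DMD were cold as well, with a median of 0.107. Of the 10 bins downstream 0 were cold, with a median of 0.725.

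CSMD1 and LSAMP also had a cold front and a warmer rear. In CSMD1 the bins from 350 to 1550 kb were cold at 0.167 (0.137, median 0.165, 0.188), and those after 1550 kb had 0.672 (0.616, median 0.658, 0.749). The rise began in the bin of exons 13 to 17 and peaked at 1.12 in that of exons 41 to 47. CSMD1 has its first exons spread over very long introns and its later exons packed closely, so the warm part is also its exon-dense part. All 10 upstream bins were cold, with a median of 0.153. The 10 bins downstream had a median of 1.12 and reached 14.5, and 1 of them was cold.

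LSAMP was cold over the first 700 kb at 0.1500 (0.124, median 0.149, 0.183), a stretch that ends in the bin of the first exon of the canonical transcript, and had 1.34 (1.203, median 1.335, 1.51) over the rest. Its bins climbed to 5.59 at 1050 to 1100 kb and 5.15 at 1100 to 1150 kb, which hold exons 2 and 3, a 60.7-fold range within the gene. This was the widest of the 9. Neither neighbouring bin passed 1.06.

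DLG2 began warm, fell, and rose again. Its first bin, with the annotated starts of the longest transcripts, had 1.03, the next 0.373, and the 12 bins from 100 to 700 kb 0.161 (0.126, median 0.163, 0.184). From 1800 kb to the end the bins lay between 0.457 and 0.678. The bin just upstream of the gene had 3.08 and none of the 20 flanking bins was cold, so the cold interior was bounded on both sides.

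FHIT and IMMP2L had a dense core rather than a cold front. In FHIT a single rise within intron 5 reached 4.46, 8.79 and 5.52 in the 3 bins from 900 to 1050 kb, against 0.278 in the lowest bin at 550 to 600 kb, a ratio of 31.7. The 3 bins held 5076, 9763 and 6254 insertions of the 42125 in FHIT. Over the whole gene 20 of 30 bins were below the genome mean, and the median bin had 0.594. The flanks were colder still, with medians of 0.298 upstream and 0.458 downstream.

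IMMP2L was densest near its start and declined along its length. The first bin had 3.91, the second 10.3 and the third 6.20, the bins of 200 to 250, 300 to 350 and 350 to 400 kb had 4.87, 4.36 and 4.02, and the last had 0.641. The ratio of the highest to the lowest bin was 16.1. LRRN3, a neuronal leucine-rich repeat gene on the opposite strand, lies inside IMMP2L at chr7:111091006-111125454.

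**Figure D2:**
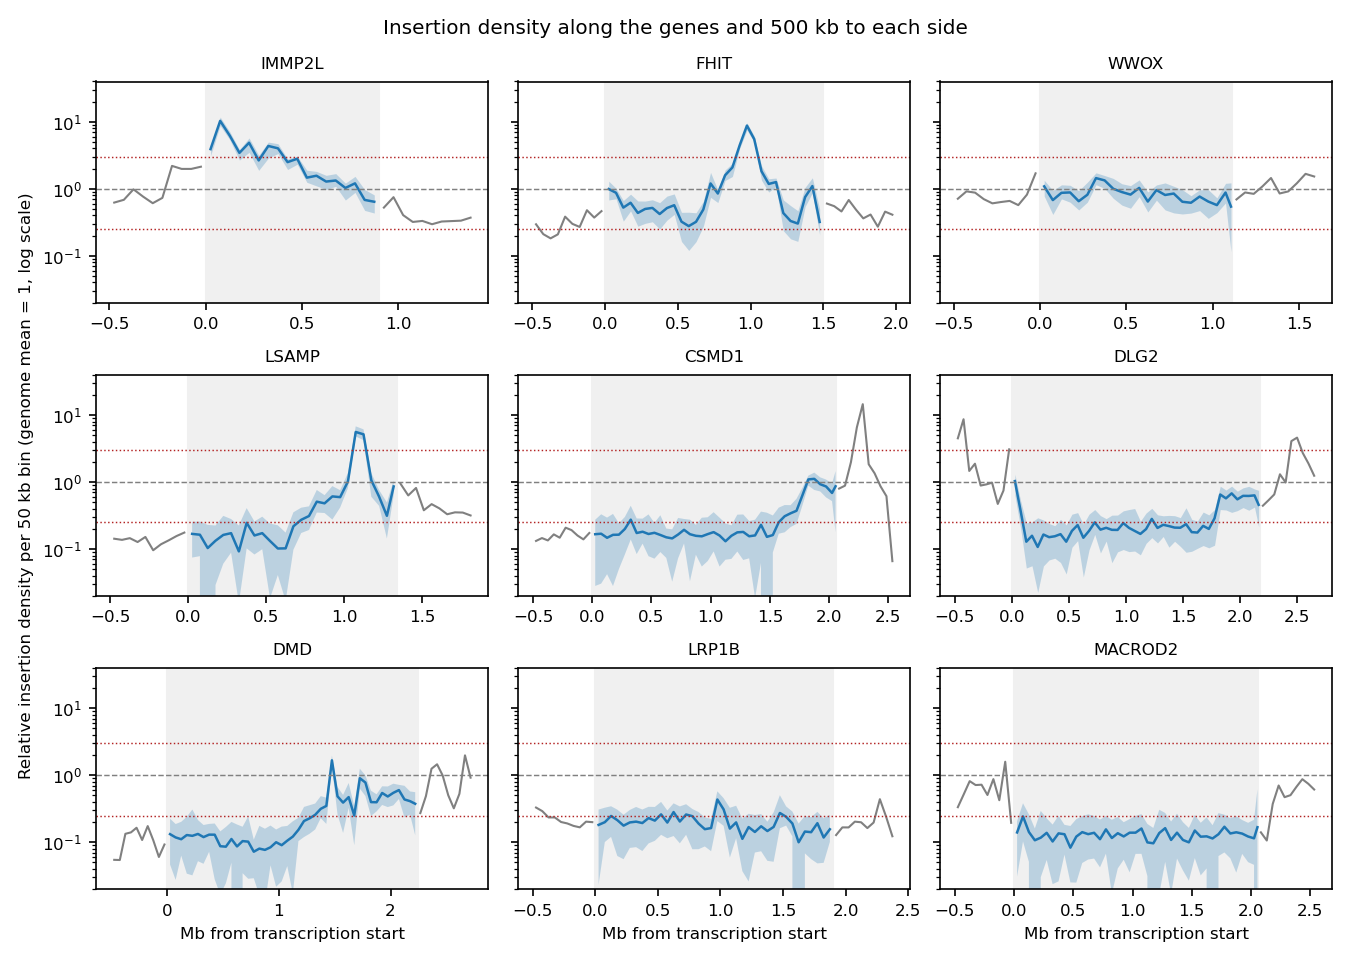
Relative insertion density per 50 kb bin (log scale) against distance from the transcription start, with the gene shaded, 500 kb of flank to each side in grey, the range over 20 libraries as a blue band and dotted lines at the cold and hot thresholds of 0.25 and 3. DMD, CSMD1 and LSAMP are cold at the front and warmer at the rear, MACROD2 is cold throughout, and FHIT, IMMP2L and LSAMP each have a peak above 3.

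Whether a stretch of these genes was missing from the cells was examined by looking for runs of TTAA sites without any insertion. No member held a run of 100 sites, whereas 827 such runs over the genome covered 1.90% of all sites. A deleted region was taken for scale. CDKN2A, a cell cycle inhibitor known to be lost in K562, had 1 insertion at its 220 TTAA sites, within a stretch of 736.81 kb with 5520 sites and 1 insertion. The longest empty runs of the members were of another order, from 16 sites in WWOX to 86 in DMD.

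The 3 longest runs lay in cold introns. In DMD 86 sites without an insertion spanned 12528 bp at chrX:32848892-32861419, a run that includes 1 exon. In DLG2 85 sites spanned 15816 bp of intron 3 at chr11:85414604-85430419, and in MACROD2 84 sites spanned 13629 bp of intron 2 at chr20:14015983-14029611. With insertions of at least 2 reads only, the longest run in MACROD2 grew to 107 sites, which was then the only run of 100 or more in the members.

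FHIT, in a bin that was not cold, held 56 empty sites over 12945 bp of intron 1 at chr3:61204821-61217765, with a bin density of 0.993. LSAMP reached 64, LRP1B 50, CSMD1 44 and IMMP2L 36. The widest interval between neighbouring hit sites was 4183 bp in WWOX and 16272 bp in DLG2. Loss of 1 of several copies would lower density without emptying it, and was not tested, and a short empty run and a stretch to which reads cannot be mapped cannot be told apart here.

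Windows of 5 kb located the hot spots more closely. A window was counted when it exceeded 5 times the density of its own gene, and 37 of 3060 member windows did (1.21%), against 0.999% of 50637 windows in the other long genes. FHIT had 11, LSAMP 8, DMD 5, IMMP2L 5, CSMD1 4, DLG2 2 and LRP1B 2, and WWOX and MACROD2 had 0.

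LSAMP was the most concentrated. Its 8 windows, from 1070 to 1140 kb, held 8794 insertions or 43.2% of those in the gene, and the densest, at 1095 kb in intron 2, reached 26.2 times the genome mean and 36.7 times the gene's own density. The 11 windows of FHIT, from 915 to 1010 kb in intron 5, held 33.6% of its insertions and peaked at 19.2 times the genome mean at 980 kb. The 5 windows of IMMP2L held 22.9%. Its window at 85 kb in intron 3 had 6716 insertions at 56 TTAA sites, all of which were hit, and with 43.8 times the genome mean it was the densest window of any member.

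The hot window of DMD was narrow. At 1475 kb it had 910 insertions at 41 sites, 8.11 times the genome mean and 28.6 times the density of DMD, and 12.7% of its insertions had the orientation of the gene. The window at 1465 kb had 425 insertions and 62.6% with that orientation. These windows therefore leaned in opposite directions. In DLG2 the densest window was the first, at the start of the gene, with 2.74 times the genome mean and 20.4% in the orientation of the gene.

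CSMD1 and LRP1B had weaker spots. The window at 1885 kb of CSMD1 had 347 insertions and 3.62 times the genome mean, and that at 990 kb of LRP1B 202 insertions and 1.27 times. The CSMD1 window holds the gene's most used site, in intron 44, with 109 insertions, 2 to 9 per library, of which 10.1% had the orientation of the gene. In MACROD2 the densest window held 50 insertions at 41 sites, 0.446 times the genome mean, so no window of this size in MACROD2 came near the mean.

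**Figure D3:**
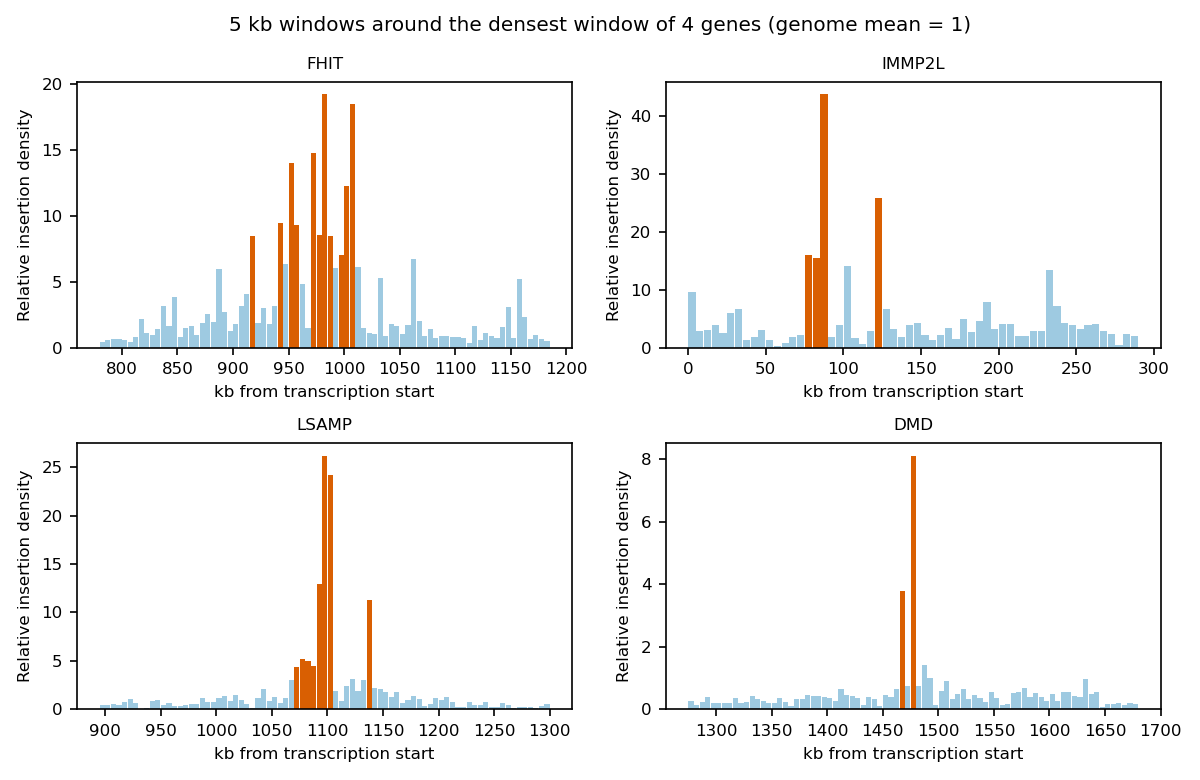
Relative insertion density (genome mean = 1) in 5 kb windows around the densest window of FHIT, IMMP2L, LSAMP and DMD, with windows over 5 times the gene's own density in orange; the scales differ between genes. FHIT has a broad cluster up to 19.2, whereas in the stretch of DMD shown 2 windows pass the mark, at 8.11 and 3.79.

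Repeated use of the same positions was highest in the members with hot bins. It rises with the insertions at single sites, so it is no trait separate from the hot bins. It did not follow the mean density of the genes throughout. A position and orientation within a library carried a mean of 1.60 barcodes in IMMP2L, 1.51 in LSAMP and 1.45 in FHIT. The mean was 1.12 in DMD and in WWOX, although WWOX is denser than LSAMP. It was 1.07 in CSMD1, 1.06 in DLG2, 1.03 in LRP1B and 1.01 in MACROD2, against 1.45 over the genome. Counting each position and orientation once per library therefore raised the relative density of MACROD2 to 0.187 and of LRP1B to 0.281 and lowered that of IMMP2L to 2.73. Insertions in exons were few, from 9 in WWOX to 159 in IMMP2L, because the exons hold 6 to 66 TTAA sites per gene. Exonic sites were denser than the rest of the gene in MACROD2, CSMD1, IMMP2L, DLG2 and DMD, and less dense in FHIT, WWOX, LRP1B and LSAMP. The ratio was widest in DLG2, with 1.21 at 32 exonic sites against 0.282 elsewhere, while WWOX had 0.548 against 0.867.

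The orientation of an insertion relative to the gene was then examined. The self-reporting transposon is transcribed in its own direction, and insertions in the direction of the host gene were the minority in most genes. The same-strand share was 37.6% in IMMP2L, 42.0% in DMD, 42.9% in CSMD1, 43.5% in FHIT, 45.1% in LSAMP, 45.2% in LRP1B and in DLG2, 46.6% in WWOX and 48.7% in MACROD2. The median was 31.2% over all protein-coding genes, 44.8% over other long genes and 46.3% over the 20 further fragile-site genes. The members were thus closer to an even share than the typical gene. The other long genes are those of at least 500 kb and are not matched to the members in length. Of these genes, 16.3% had a lower share than IMMP2L and 82.4% a lower share than MACROD2.

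Over libraries, the IMMP2L share ran from 35.9% through a median of 37.2% to 39.7% and overlapped, at its upper edge, the ranges of DMD (39.4% to 47.2%) and CSMD1 (39.6% to 47.8%). It also overlapped that of LRP1B (36.6% to 49.2%), through the lowest LRP1B library, hyPBase replicate 8. MACROD2 ran from 42.1% through 48.6% to 55.6%, with 14 of 20 libraries below 50%. A library held few insertions in MACROD2, so its spread was wider.

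By edgeR's quasi-likelihood test with Benjamini-Hochberg adjustment, same-strand insertions were fewer than opposite-strand insertions in 8 of 9 members. Calls in either direction were made for 90.5% of the 12325 genes tested, with 10486 genes lower and 665 higher. The lower call is thus no mark of the members. The log2 ratio of same to opposite strand was -0.73 (SE 0.012) in IMMP2L, -0.47 (SE 0.023) in DMD, -0.42 (SE 0.025) in CSMD1 and -0.38 (SE 0.014) in FHIT, and in the remaining called members between -0.28 and -0.20. MACROD2 had -0.07 (SE 0.037, adjusted p = 0.0614). The call was made for all 9 members without hyPBase-centrip replicate 3 (MACROD2 adjusted p = 0.0324) and with positions free of any annotated gene on the other strand (adjusted p = 0.0248). The median log2 ratio was -0.28 over the members and -1.12 over all genes tested.

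The same-strand share of the first 50 kb was lower than that of the rest of the gene in 5 members, and in FHIT, WWOX and IMMP2L it was the lowest of any bin. In the first 50 kb of FHIT 17.0% of 899 insertions had the orientation of the gene (95% Wilson interval 14.7% to 19.6%, which covers counting error only), against 44.1% in the rest of the gene. The first bin of IMMP2L had 25.8% against 38.9%, that of WWOX 28.0% against 47.9% and that of DLG2 31.8% against 46.4%. Shares of bins and of the rest of a gene count all positions. Shares of whole genes leave out positions that a protein-coding gene on the other strand overlaps. In these 4 genes the first bin was lower in 20 of 20 libraries, and in MACROD2, with 31.6% of 158 insertions against 49.2%, in 17 of 20.

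LRP1B, CSMD1, LSAMP and DMD had no such dip. Their first bins, all cold, had 47.0%, 50.0%, 52.8% and 52.1% of 249, 174, 199 and 167 insertions in the orientation of the gene. The first bins of LSAMP and DMD were lower than the rest in 5 and 4 of 20 libraries. In LSAMP and DMD the gene begins before the canonical transcript, whose first exon lies in the bin of 650 to 700 kb and in that of 100 to 150 kb.

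Away from the start, single bins leaned either way. In FHIT, 61.0% of insertions at 650 to 700 kb (interval 56.5% to 65.3%) and 61.3% at 1350 to 1400 kb (57.5% to 64.9%) had the orientation of the gene, whereas the dense bin at 950 to 1000 kb had 37.4%. In DMD the share was 20.7% at 1600 to 1650 kb (17.5% to 24.3%) and 21.8% at 2100 to 2150 kb (18.1% to 26.0%). The most used FHIT site had 81.7% in the orientation of the gene, and the most used WWOX site 5.48%. The most used LSAMP site was near an even share, with 48.2% against 45.1% in the gene, and that of IMMP2L had 29.4% against 37.6%.

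**Figure D4:**
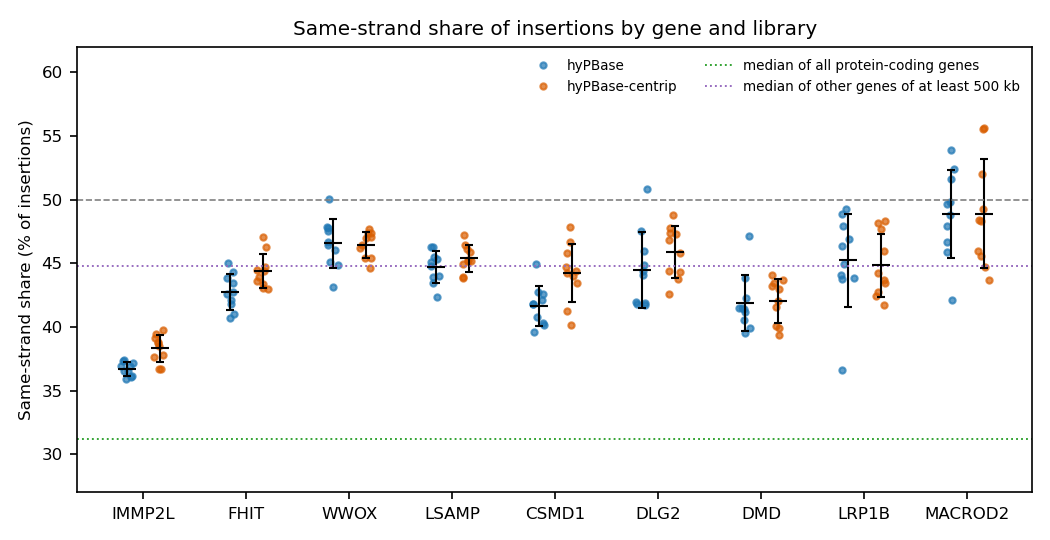
Percent of insertions with the orientation of the gene for each gene and library (hyPBase blue, hyPBase-centrip orange, black bars mean and SD of 10 libraries), with lines at 50% and at the medians of all protein-coding genes and of other long genes. IMMP2L lies lowest with 35.9% to 39.7%, and all 9 genes lie above the median of all genes.

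The helpers were compared to ask whether hyPBase-centrip changed how often these genes were hit. By edgeR's quasi-likelihood test, IMMP2L was the 1 member of 9 called, against 2.39% of the 12865 genes tested. In the hyPBase libraries its density was 2.95 at the lowest, 3.17 at the median and 3.30 at the highest, and in the hyPBase-centrip libraries 2.45, 2.92 and 3.05. The groups overlapped, but 8 of 10 hyPBase-centrip libraries lay below every hyPBase library. The log2 difference was -0.15 (SE 0.023, adjusted p = 1.00e-06), with 2362 ± 83.6 CPM (insertions scaled to the TMM-normalized sum over the genes tested) in hyPBase and 2129 ± 120 in hyPBase-centrip (SD, n = 10 each). The call was kept without hyPBase-centrip replicate 3, with a log2 difference of -0.13. With insertions of at least 2 reads only, the log2 difference was -0.20 (adjusted p = 0.000261 by edgeR). Reads per insertion differed between the helpers, and the part of read depth in the helper differences was not tested.

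DMD lay on the other side of the threshold. Its density was 0.247, 0.278 and 0.288 at the lowest, median and highest hyPBase library and 0.255, 0.295 and 0.303 in the hyPBase-centrip libraries, of which replicate 3 was the lowest. The log2 difference was 0.10 (SE 0.029, adjusted p = 0.0518 by edgeR), and without hyPBase-centrip replicate 3 it was 0.11 with an adjusted p of 0.0112. The other 7 members had log2 differences between -0.07 (SE 0.030, DLG2) and 0.04 (SE 0.029, WWOX), with adjusted p from 0.255 to 0.996. Of the 20 further fragile-site genes 0 were called.

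In 50 kb bins, 197 member bins had enough insertions to be tested and 6 were called, all lower with hyPBase-centrip, against 1.22% of the 26758 bins tested by edgeR. Of these, 5 lay in the first 400 kb of IMMP2L and were its 5 densest bins. The bin at 200 to 250 kb had a density of 4.22, 5.43 and 5.75 at the lowest, median and highest hyPBase library and 3.51, 4.46 and 4.77 with hyPBase-centrip, a log2 difference of -0.29 (SE 0.042, adjusted p = 4.47e-08). The bin at 50 to 100 kb, the densest, had -0.17 (SE 0.036, adjusted p = 0.00123). The remaining 3, at 100 to 150, 300 to 350 and 350 to 400 kb, had -0.15, -0.21 and -0.18. From 450 kb onward none of the bins of IMMP2L was called.

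The last called bin was the dense core of FHIT at 950 to 1000 kb. Its density was 8.54, 9.33 and 9.67 in hyPBase and 7.54, 8.39 and 9.29 in hyPBase-centrip, a log2 difference of -0.14 (SE 0.037, adjusted p = 0.0233), while FHIT as a whole had -0.03 (SE 0.023, adjusted p = 0.626). The neighbouring bin at 1000 to 1050 kb had -0.11 (SE 0.042, adjusted p = 0.196). Dense sites are also those nearest to the ceiling on barcodes, whose part in these differences was not tested.

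**Figure D5:**
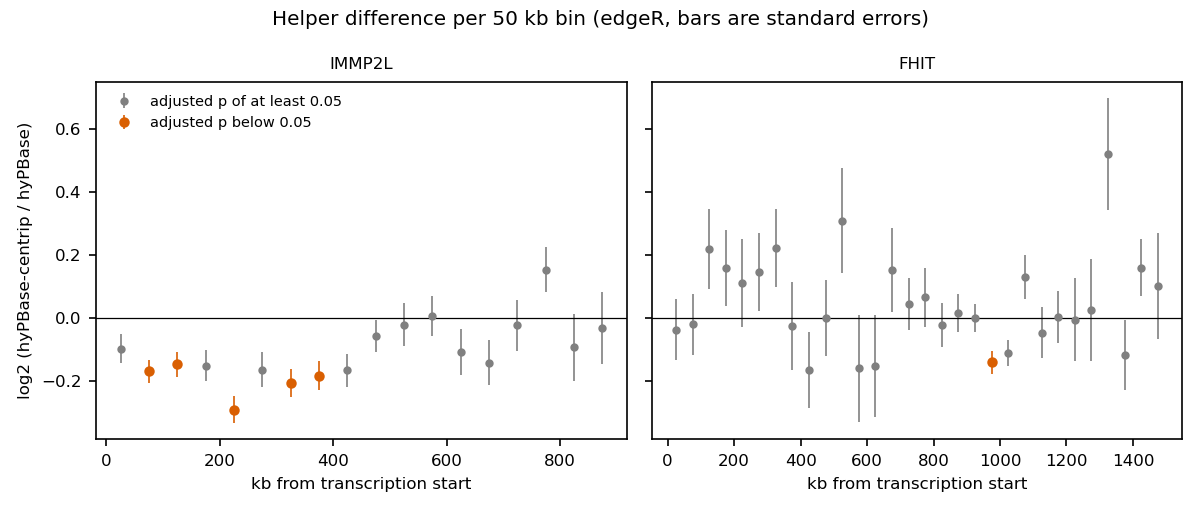
Log2 difference of insertions between hyPBase-centrip and hyPBase per 50 kb bin (edgeR, bars are standard errors) along IMMP2L and FHIT, with bins of adjusted p below 0.05 in orange. The 5 called bins of IMMP2L lie within 400 kb of its start, and the 1 of FHIT is its densest bin.

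The difference in strand bias between helpers was called in 1 of 9 members, IMMP2L, against 2.23% of the 12325 genes tested by edgeR. Its same-strand share was 35.9%, 36.7% and 37.4% at the lowest, median and highest hyPBase library and 36.7%, 38.7% and 39.7% with hyPBase-centrip, with overlapping groups. The log2 ratio of same to opposite strand was higher by 0.10 (SE 0.023, adjusted p = 0.00406) with hyPBase-centrip. The median over all genes tested was 0.09 in the same direction, so IMMP2L moved about as far as the typical gene. FHIT had 0.09 (SE 0.028, adjusted p = 0.0551). The estimates for CSMD1, 0.13 (SE 0.051, adjusted p = 0.180), and DLG2, 0.12 (SE 0.049, adjusted p = 0.210), were larger with wider errors and were not called. Whether IMMP2L differed from the other members was not tested. With barcodes collapsed the IMMP2L difference was 0.10 with an adjusted p of 0.164, and with insertions of at least 2 reads 0.06 with an adjusted p of 0.441.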

How the data were processed

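Calling card libraries of K562 cells were analysed, 10 made with hyPBase and 10 with hyPBase-centrip. The 2 further libraries, which carry ClarkMut in their name, entered no test and no pooled value, and their densities are only described at the end. Their title and description name different helpers. The authors deposited, per library, 1 line per insertion with its position on hg38, its raw count of reads, its orientation and its barcode. The counts were not normalized. The submitters' processing notes name Trimmomatic, BWA and SAMtools without versions. How reads became insertions can hide repeats and reads off TTAA sites, and was not checked.

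Each line was counted as 1 insertion. TTAA sites were read from hg38 and gene bodies from GENCODE version 44, on chromosomes 1 to 22 and X. Relative density is insertions per TTAA site over the genome mean. Bins of 50 kb needed at least 50 TTAA sites, windows of 5 kb at least 10. Depth was 1509672 to 3596762 insertions per library, and intervals on shares are 95% Wilson intervals that cover counting error only.

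Insertions per gene and per 50 kb bin were compared between helpers with edgeR 4.0.16 in R 4.3.3 (TMM, quasi-likelihood test, Benjamini-Hochberg adjustment over all genes or bins tested, threshold 0.05), where 10 or more libraries each held 10 or more insertions. Same-strand and opposite-strand counts were fitted with a term per library, at positions free of protein-coding genes of the other strand. DESeq2 1.42.0 was an alternative. In a simulation with 200 changed genes the helper test recovered 38.2% of 1.2-fold and 90.8% of 1.5-fold changes over 12755 and 12739 genes. The orientation test recovered 35.5% and 89.4% over 12182 and 12188 genes, so changes as small as those reported can be missed. Of the simulated calls, 6.17% and 7.29% were false in the helper test, above the threshold of 0.05. In the orientation test 4.05% and 3.28% were false. Alternatives covered reads per insertion, barcodes, thresholds, bin size, normalization, filters, positions free of any annotated gene on the other strand, a replicate block and the omission of hyPBase-centrip replicate 3. Python 3.11.15, numpy 2.4.6, pandas 2.3.3, scipy 1.17.1 and matplotlib 3.10.9 were used.

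The genes named are the 9 members, each with its coldest and hottest bin, its longest empty run, its densest windows and its most used site, the most alike long gene of each, and members of the list of 20 further fragile-site genes on which a result turns. Of that list 0 of 20 were called between helpers, 19 of 20 in orientation (all lower, median log2 ratio -0.21) and 2 of 20 in the orientation difference between helpers. CDKN2A, the bins between the extremes and the transcript start in DMD were chosen after their values were seen. The members, lists and thresholds were chosen with earlier results of these data known.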

Additional observations from a re-analysis of the deposited data

Results flagged for a closer look

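In each helper, the density and the same-strand share of each member were examined for a library far from the other 9 (gap to its neighbour over the range above Dixon's 95% critical value). Of 36 groups 5 were flagged, where chance flags about 1 in 20. Of these, 3 concerned hyPBase-centrip replicate 3, whose density was 2.45 in IMMP2L (next lowest 2.80), 0.149 in LRP1B (0.190) and 0.255 in DMD (0.286). In hyPBase replicate 8 the same-strand share of LRP1B was 36.6% (43.8%), and in hyPBase replicate 9 the density of LSAMP was 0.795 (next highest 0.748).

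The log2 ratio of same to opposite strand in IMMP2L differed between helpers by 0.10 in the interaction test of edgeR. The libraries without an assigned helper, which enter no test, held 8551 and 6919 insertions in the 9 members.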

How the results depend on the processing

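Cold, hot and near-empty counts followed their definitions. Cold bins numbered 14 at the thresholds 0.1, 0.01 and 2, 350 of 614 in bins of 25 kb and 91 of 156 in bins of 100 kb. Hot bins numbered 6 at the thresholds 0.5, 0.05 and 5 and 22 in bins of 25 kb. With distinct positions over the pooled libraries, where no density can pass 2.08, cold bins, hot bins and local hot spots were each 0. Empty stretches numbered 13 at runs of 50 sites and 1 with at least 2 reads per insertion, and local hot spots 115 at 3 times and 12 at 10 times the gene's density. Between helpers, 191 genes were called by DESeq2 and 21 with barcodes collapsed, against 307. With RLE normalization, DESeq2 or without hyPBase-centrip replicate 3, 2 members were called, the second being DMD. The orientation difference was called for 112 genes with at least 2 reads and 2 with barcodes collapsed, against 275, and for 0 members in both. The cause of these differences was not tested. Log2 differences near 0 that changed sign were those between helpers of LRP1B (0.032 with barcodes collapsed, 0.016 without hyPBase-centrip replicate 3) and MACROD2 (-0.081 with at least 2 reads, -0.0055 with the replicate block), and the orientation differences of WWOX (-0.0069 without genes of any kind on the other strand), MACROD2 (-0.0011 with barcodes collapsed, -0.021 without hyPBase-centrip replicate 3) and DMD (-0.020 with at least 2 reads). With the replicate block 292 genes and 285 bins were called, and the block changed the call of no member. Same-numbered libraries did not deviate together, with correlations of -0.046 to 0.038 over 10 pairs and 1 pair best with its own number, so the number is no pairing. The highest correlation with a library of another number was 0.156, for hyPBase replicate 8. Deviations shared between libraries of different numbers were not tested. Relative densities of the members moved to between 0.873 and 1.43 times their value, and only WWOX crossed 1. Depth limits bins in the coldest genes, where a library held few or no insertions.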

Other observations

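The ClarkMut libraries, whose labels name both helpers, had the members in nearly the same order as the others. Their densities were 2.82 and 2.79 in IMMP2L, 1.23 and 1.25 in FHIT, 0.955 and 1.11 in WWOX, 0.641 and 0.682 in LSAMP, 0.281 and 0.302 in CSMD1, 0.293 in both in DLG2, 0.260 and 0.284 in DMD, 0.175 and 0.169 in LRP1B, and 0.0971 and 0.129 in MACROD2. The same-strand share of IMMP2L was 38.9% and 38.4%. Both values of WWOX lay above the range of the 20 other libraries and both of FHIT below it. LSAMP at 0.641 and MACROD2 at 0.0971 were also below their ranges.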
